A study of Mus musculus with 6 samples.

Results

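The genes of antigen presentation by the major histocompatibility complex (MHC) were compared between livers of sham-operated and vertical sleeve gastrectomy (VSG)-operated mice. VSG removes most of the stomach. The 10 genes were set as a list of names, with no threshold on their values, and all 10 were found among the 55385 genes of the count table. They comprise the class I genes H2-K1, H2-D1 and B2m and the class II genes H2-Aa, H2-Ab1, H2-Eb1, Cd74, Ciita, H2-DMa and H2-DMb1. Poly(A)-selected liver RNA came from 3 sham and 3 VSG mice, 1 library per animal. All were male wild-type C57BL/6 mice that began a high-fat diet at 6 to 8 weeks of age, ate it for 10 weeks, were operated on, and stayed on it for another 12 weeks. Libraries are named by group and the number in their label, sham 1 to 3 and VSG 4 to 6. Total counts ran from 22804397 to 24191778 per library, and each of the 10 genes had at least 90 counts in each library. The deposited values are read counts. They are given here as CPM (read counts normalised to a TMM-scaled library size) within a gene and as FPKM (CPM per kilobase of exon) between genes.

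Class I molecules are found on nearly all nucleated cells and show peptides made in the cytosol to CD8 T cells. Each holds a heavy chain, such as the products of H2-K1 and H2-D1, and the light chain encoded by B2m. Class II molecules are paired alpha and beta chains found mainly on dendritic cells, B cells and macrophages, and they show peptides from the endosome to CD4 T cells. In the liver, hepatocytes carry class I, while Kupffer cells, dendritic cells and sinusoidal endothelium can carry class II. Transcription of class II genes depends on the transactivator CIITA, and that of class I genes on NLRC5 and interferon-induced factors.

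Promoters are shown because the 10 genes shared a direction of difference and because both classes are known to be driven from short proximal elements. RefSeq promoters (GRCm38.p6, 250 bases before to 50 after the start of a gene) were found for 7 of the 10 genes, and Cd74, Ciita and H2-Ab1 had none in the table. The letters searched for on both strands were CCAAT (the Y box), TGACG (the core of the X2 box or CRE), GNAACNNAT (letters of the class II X box), GGGATTCCC (a kappa B palindrome), TTTCACTTC (letters of the interferon response sequence of class I genes) and GAAANNGAA (letters of an interferon-stimulated response element). These were chosen after the promoters had been read. Capitals in the sequences mark every match, as written on the strand of the gene, and none of the motifs overlapped another in the sequences printed, except that TGACG overlapped its own reverse in H2-Aa. H2-Q10, a class I gene described with the others below, is printed beside the class I genes.
H2-K1, chr17:34000298-34000597, minus strand: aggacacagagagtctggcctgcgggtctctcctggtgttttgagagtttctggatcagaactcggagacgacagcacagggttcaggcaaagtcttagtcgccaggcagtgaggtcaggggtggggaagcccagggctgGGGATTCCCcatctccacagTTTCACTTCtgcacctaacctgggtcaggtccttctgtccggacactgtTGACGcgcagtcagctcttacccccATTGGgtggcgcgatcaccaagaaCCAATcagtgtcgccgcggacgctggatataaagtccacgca
H2-D1, chr17:35262844-35263143, plus strand: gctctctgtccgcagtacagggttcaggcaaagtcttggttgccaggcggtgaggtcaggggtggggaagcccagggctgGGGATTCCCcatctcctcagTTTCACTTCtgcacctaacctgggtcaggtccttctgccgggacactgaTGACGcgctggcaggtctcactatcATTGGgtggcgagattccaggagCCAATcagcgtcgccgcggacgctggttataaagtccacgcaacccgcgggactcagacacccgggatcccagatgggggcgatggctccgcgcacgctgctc
B2m, chr2:122147437-122147736, plus strand: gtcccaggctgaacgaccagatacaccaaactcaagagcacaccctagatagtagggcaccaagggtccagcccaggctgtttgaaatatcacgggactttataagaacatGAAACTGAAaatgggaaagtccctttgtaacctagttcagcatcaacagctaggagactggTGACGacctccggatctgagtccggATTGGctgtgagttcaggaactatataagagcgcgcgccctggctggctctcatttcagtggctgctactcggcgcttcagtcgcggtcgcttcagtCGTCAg
H2-Q10, chr17:35469839-35470138, plus strand: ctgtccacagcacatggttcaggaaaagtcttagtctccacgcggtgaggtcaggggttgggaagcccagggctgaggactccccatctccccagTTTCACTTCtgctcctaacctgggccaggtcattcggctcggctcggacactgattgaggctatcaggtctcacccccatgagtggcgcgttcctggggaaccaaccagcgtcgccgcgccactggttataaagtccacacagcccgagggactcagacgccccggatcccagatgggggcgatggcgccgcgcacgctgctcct
H2-Aa, chr17:34287774-34288073, minus strand: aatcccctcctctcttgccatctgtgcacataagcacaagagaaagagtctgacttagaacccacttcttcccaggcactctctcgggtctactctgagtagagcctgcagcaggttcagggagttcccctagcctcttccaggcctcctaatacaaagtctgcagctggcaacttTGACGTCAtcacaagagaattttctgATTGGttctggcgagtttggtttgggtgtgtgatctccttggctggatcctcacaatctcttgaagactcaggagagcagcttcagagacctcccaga
H2-Eb1, chr17:34305617-34305916, plus strand: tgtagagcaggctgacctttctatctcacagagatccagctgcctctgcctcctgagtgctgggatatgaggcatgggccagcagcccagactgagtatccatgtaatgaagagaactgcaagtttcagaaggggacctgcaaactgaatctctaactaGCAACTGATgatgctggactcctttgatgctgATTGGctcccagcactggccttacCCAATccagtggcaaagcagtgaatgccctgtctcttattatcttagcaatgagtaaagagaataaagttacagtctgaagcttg
H2-DMb1, chr17:34152941-34153240, plus strand: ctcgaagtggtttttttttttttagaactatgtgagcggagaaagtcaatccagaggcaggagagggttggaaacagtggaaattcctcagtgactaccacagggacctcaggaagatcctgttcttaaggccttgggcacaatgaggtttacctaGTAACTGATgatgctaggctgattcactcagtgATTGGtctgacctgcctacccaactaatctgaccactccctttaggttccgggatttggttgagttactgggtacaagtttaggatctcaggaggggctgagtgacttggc
H2-K1 and H2-D1 carried the same 4 kinds of match in the same order, namely the kappa B palindrome, the interferon response letters, TGACG and CCAAT on both strands. The palindrome was present in 0.353% of the 32851 RefSeq promoters and the interferon response letters in 0.505%. Of these, the promoter of H2-Q10 kept only the interferon response letters. B2m carried GAAANNGAA (8.56% of all promoters), TGACG (20.8%) and CCAAT (37.4%). H2-Eb1 and H2-DMb1 carried the class II X box letters (7.92% of all promoters), each with CCAAT on the other strand nearer to the start. H2-Aa had TGACG and CCAAT without those X box letters. Of the 2 promoters listed for H2-DMa, which are not printed, 1 held CCAAT and the other GNAACNNAT. These matches are letters in a window and were not tested for binding.

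Expression of all 10 genes was lower on average in VSG than in sham livers, and the difference passed the test for 1 of them, H2-K1. The median log2 fold change of the 10 genes was -0.53, against 0.03 over the 14454 genes tested. An adjusted p under 0.05 (edgeR quasi-likelihood test, Benjamini-Hochberg over all genes tested) with a lower level after VSG was reached by 1 of the 10 genes, and by 7.87% of all genes tested. None of the 10 was higher at that threshold, against 6.79% of all genes tested. The VSG libraries all lay below the sham libraries in 4 of the 10 (H2-K1, H2-D1, B2m and H2-Eb1), and in 19.8% of all genes tested. Groups that did not overlap, in either direction, made up 39.7% of all genes tested. At an unadjusted p under 0.05 there were 5 of the 10, and 33.9% of all genes tested. With DESeq2 in place of edgeR, 4 passed (H2-K1, B2m, H2-D1 and H2-Eb1), and by edgeR 0 did without sham replicate 1, 2 or 3 or VSG replicate 6.

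**Figure D1:**
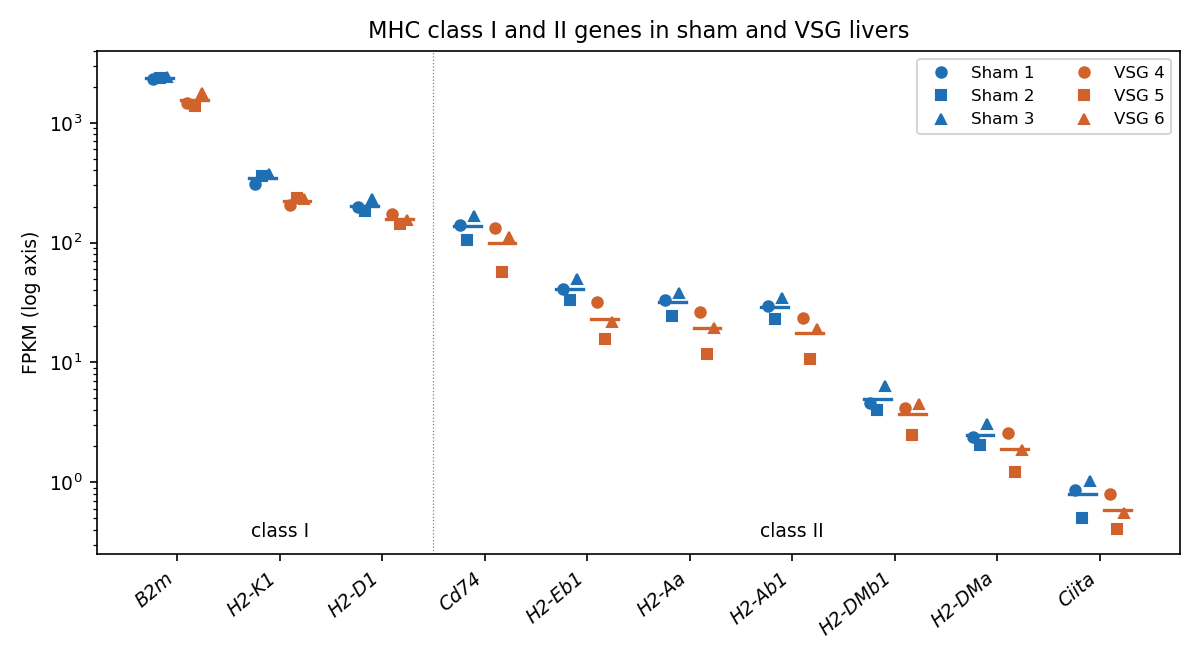
FPKM of the 10 MHC genes (log axis) in the 3 sham livers (blue) and 3 VSG livers (orange). Each point is 1 library and each line a group mean. The groups are separate in B2m, H2-K1, H2-D1 and H2-Eb1 and overlap in the other 6 genes, where sham 2 and VSG 5 lie lowest in their groups.

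H2-K1, which encodes a classical class I heavy chain, fell after VSG. Its level was 901, 1060 and 1090 CPM in sham 1, 2 and 3 and 602, 689 and 677 CPM in VSG 4, 5 and 6. The highest VSG library lay well under the lowest sham library. The level was 1.55-fold lower after VSG (log2 fold change -0.63, SE 0.156, 95% interval -1.004 to -0.26, adjusted p 0.0417 by edgeR). The call was close to the threshold, and the adjusted p was 0.0621, 0.101 and 0.161 without sham replicate 1, 2 and 3 and 0.0986 and 0.129 without VSG replicate 4 and 6.

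H2-D1, the other classical heavy chain gene of this strain in the list, was at 513, 470 and 595 CPM in sham and at 449, 371 and 397 CPM in VSG libraries. The groups did not overlap, but sham 2 and VSG 4 lay close together. The log2 fold change of -0.38 (SE 0.153, 95% interval -0.74 to -0.01) did not pass the test (adjusted p 0.138 by edgeR).

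B2m, the light chain gene and the most abundant of the 10, was at 1995, 2023 and 2095 CPM in sham and at 1270, 1200 and 1538 CPM in VSG libraries. The 3 sham libraries lay close together, whereas VSG 6 stood above the other VSG libraries, and the groups were well apart. The log2 fold change was -0.61 (SE 0.180, 95% interval -1.04 to -0.18) with an adjusted p of 0.0657 by edgeR. It was past the threshold with DESeq2 (adjusted p 2.00e-04) and with total counts as library sizes (0.0293).

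The other class I genes were taken from lists of non-classical heavy chains, peptide loading, immunoproteasome, class I transcription and interferon gamma signalling. Of their 42 genes, 40 had enough counts to be tested. At an adjusted p under 0.05, 7 were lower after VSG and 0 higher by edgeR, where 14 had an unadjusted p under 0.05 in either direction, and DESeq2 called 9 lower and 1 higher. Over all genes tested, 7.87% were lower at the adjusted threshold and 33.9% had an unadjusted p under 0.05. The median log2 fold change over the 40 was -0.09. Leaving out sham replicate 2 or 3 took the count of 7 to 4 or 1, and leaving out VSG replicate 4 or 6 took it to 3 or 2. Without VSG replicate 5 there were 5 lower and 2 higher.

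H2 heavy chain genes made up 4 of these 7 calls. Of the 13 H2-Q, H2-T and H2-M genes, 12 were tested and all 12 had a negative log2 fold change, with a median of -0.59, although H2-T10 (-5.97e-04), H2-Q7 and H2-M3 (-0.12) turned positive under at least 1 alternative. H2-Q1, H2-Q6, H2-Q10 and H2-T22 passed the test, and the VSG libraries lay below the sham libraries in 7 of the 12. Of all genes tested, 7.87% were called lower and 19.8% had all VSG libraries below the sham libraries.

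H2-Q10, which encodes a class I molecule that hepatocytes secrete, was at 1281, 1688 and 1438 CPM in sham and at 839, 780 and 868 CPM in VSG libraries. The VSG libraries were tightly grouped and well below every sham library. The level was 1.77-fold lower after VSG (log2 fold change -0.83, SE 0.173, adjusted p 0.0286 by edgeR). Leaving out sham replicate 2 or 3 gave an adjusted p of 0.0714 or 0.115, and leaving out VSG replicate 4 or 6 gave 0.0643 or 0.0996.

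H2-Q1, a non-classical heavy chain gene of the same cluster, had the largest log2 fold change among the class I genes. It was at 59.6, 26.3 and 49.5 CPM in sham and at 2.53, 1.88 and 2.05 CPM in VSG libraries. The lowest sham library, sham 2, still lay far above every VSG library. The level was 20.9-fold lower (log2 fold change -4.39, SE 0.346, adjusted p 0.00268 by edgeR), and the call held under all 12 alternatives, in which the adjusted p ran from 5.60e-34 to 0.0253.

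H2-T22, whose product is bound by a subset of gamma delta T cells, fell from 70.1 ± 5.99 CPM (SD, n = 3) in sham to 42.6 ± 4.13 CPM in VSG livers, by 0.72 on the log2 scale (SE 0.112), and the edgeR adjusted p was 0.0147. H2-Q6, which encodes a Qa-2 family antigen, fell from 24.4 ± 0.625 CPM in sham to 15.1 ± 3.69 CPM in VSG livers, by 0.69 on the log2 scale (SE 0.173), and the edgeR adjusted p was 0.0434. Without sham replicate 3 neither passed, with adjusted p-values of 0.0757 for H2-T22 and 0.145 for H2-Q6. H2-Q6 was also lost without sham replicate 1 (0.0950) or 2 (0.0975) and without VSG replicate 4 (0.0911) or 6 (0.141). H2-Q7, another gene of the H2-Q cluster, was at 25.4 CPM on average in sham and 24.3 CPM in VSG livers and did not pass (log2 fold change -0.06, 95% interval -0.38 to 0.26).

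Of the class I-like genes outside the H2 cluster, Cd1d1 passed. Its product presents lipids to natural killer T cells, and it fell from 200 ± 34.4 CPM in sham to 122 ± 13.8 CPM in VSG livers, by 0.71 on the log2 scale (SE 0.163), and the edgeR adjusted p was 0.0346. The call was lost without sham replicate 2 (adjusted p 0.0895) or 3 (0.131) and without VSG replicate 4 (0.0835), 5 (0.0558) or 6 (0.0852). Mr1, Fcgrt, Hfe and Azgp1 did not pass. Azgp1, the most abundant gene of this list per length, was at 804 ± 109 FPKM in sham and 811 ± 72.0 FPKM in VSG livers (log2 fold change 0.01, 95% interval -0.42 to 0.44).

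**Figure D2:**
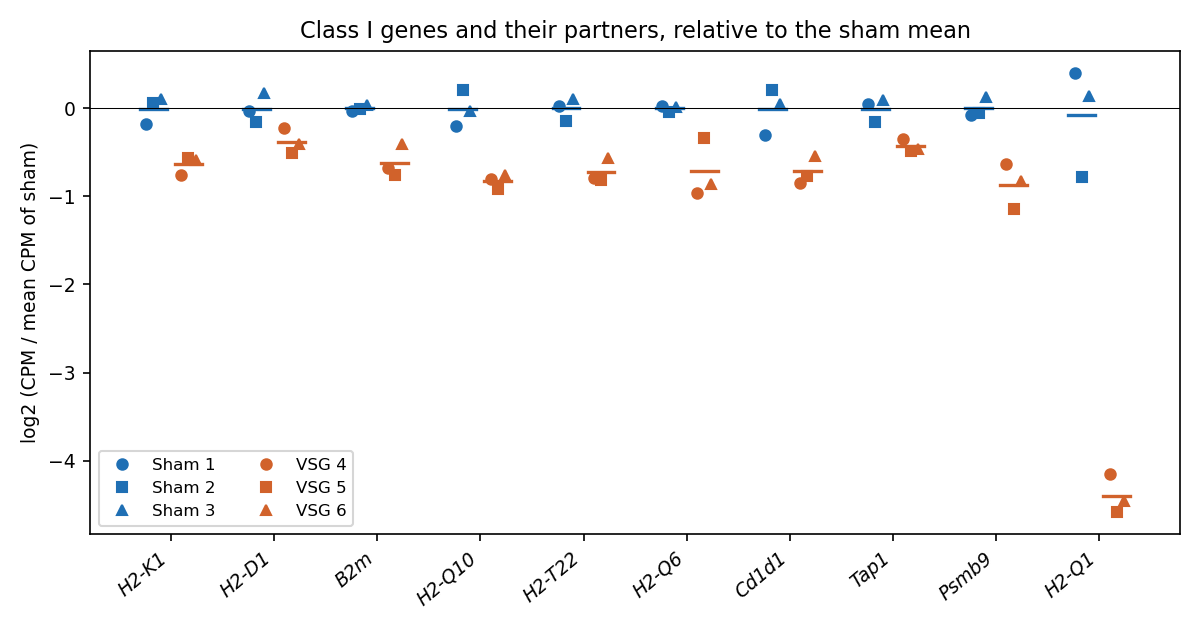
CPM of the 3 class I genes H2-K1, H2-D1 and B2m and of the 7 other class I pathway genes past the test, as log2 of the ratio to the sham mean, in sham (blue) and VSG (orange) libraries. Points are single libraries and lines are means of the plotted values. All VSG points lie under the sham points of the same gene, and H2-Q1 lies far below the rest.

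Peptide loading genes split in direction, with 4 of 8 negative. Among the 8 only Tap1, a subunit of the peptide transporter, passed. It fell from 41.9 ± 3.79 CPM in sham to 31.1 ± 1.53 CPM in VSG livers, by 0.43 on the log2 scale (SE 0.101), and the edgeR adjusted p was 0.0357, a call that 6 of 12 alternatives did not keep. The adjusted p was 0.0538 with total counts as library sizes, 0.0829 and 0.141 when sham replicate 1 or 3 was left out, and 0.0611, 0.0582 and 0.116 when VSG replicate 4, 5 or 6 was. Calr, the most abundant of the 8 per length and a chaperone of heavy chains, was at 208 ± 39.5 FPKM in sham and 296 ± 87.9 FPKM in VSG livers and did not pass (adjusted p 0.232 by edgeR).

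Of 5 immunoproteasome and activator genes, all had a negative log2 fold change and 1 passed, although Psmb8 was positive under at least 1 alternative. Psmb9, an interferon-inducible catalytic subunit, fell from 21.5 ± 1.69 CPM in sham to 11.9 ± 2.08 CPM in VSG livers, by 0.85 on the log2 scale (SE 0.152), and the edgeR adjusted p was 0.0196. Its partner subunits Psmb8 (log2 fold change -0.08) and Psmb10 (-0.16) did not pass. Psmb9 did not pass when sham replicate 3 (adjusted p 0.0930) or VSG replicate 6 (0.0777) was left out and passed in the other 10 alternatives. Psme1, the most abundant of these genes per length, had a log2 fold change of -0.35 and an adjusted p of 0.0745.

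None of the 5 class I transcription genes passed by edgeR, DESeq2 or limma-voom, and 0 had an unadjusted p under 0.05. Nlrc5, the class I transactivator, was at 4.81 ± 0.821 FPKM in sham and 5.13 ± 0.799 FPKM in VSG livers (log2 fold change 0.09, 95% interval -0.31 to 0.50). Rela, the most abundant of the 5, stood at 12.6 ± 0.583 and 12.8 ± 1.13 FPKM. Jak1, the most abundant interferon gamma gene reported here, was at 24.6 ± 0.945 FPKM in sham and 30.3 ± 0.116 FPKM in VSG livers. Every VSG library was above every sham library, and the difference did not pass by edgeR (adjusted p 0.0852) but passed under 1 of 12 alternatives (0.00321, over a range that reached 0.498). Ifng itself had at most 2 counts in a library and was not tested.

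**Figure D3:**
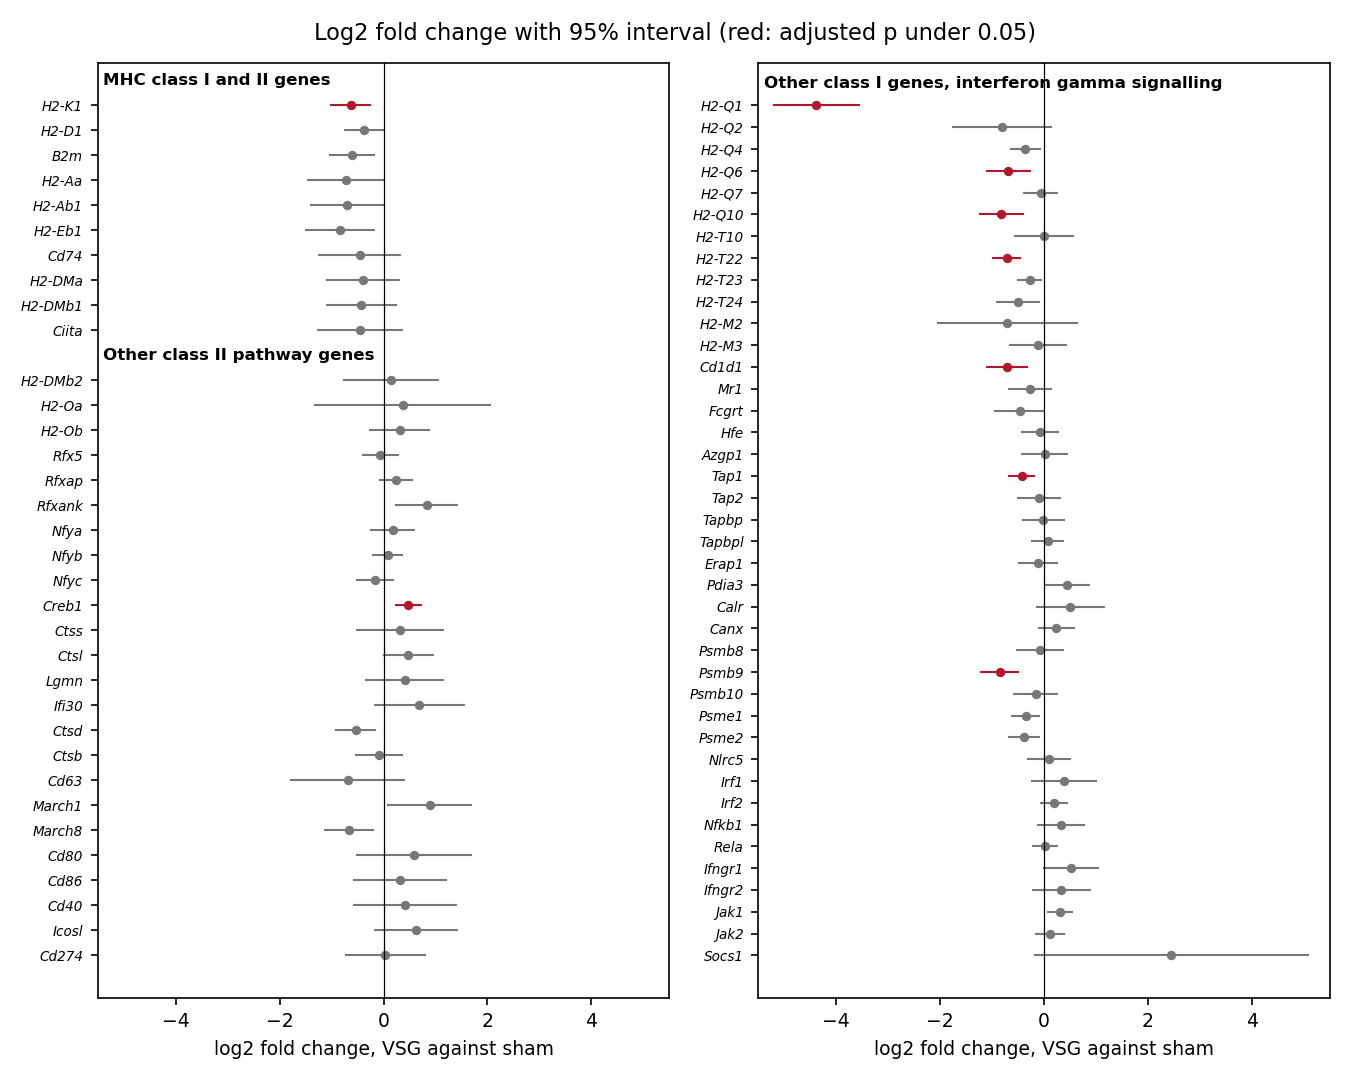
Log2 fold change of VSG against sham (point) with its 95% interval (line) for the 10 MHC genes, 24 other class II genes and 40 other class I and interferon gamma genes that could be tested, red where the adjusted p was under 0.05. Red points lie left of 0 except that of Creb1, and H2-Q1 is the one furthest left.

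None of the 7 class II genes passed the test by edgeR or limma-voom. By edgeR, 2 of the 7 had an unadjusted p under 0.05, against 33.9% of all genes tested, and DESeq2 called 1 lower (H2-Eb1). All 7 had a negative log2 fold change, with a median of -0.46. Their summed level ran from 409 to 640 CPM in sham and from 209 to 468 CPM in VSG livers. In all 7 genes sham 3 was the highest and sham 2 the lowest of the sham libraries, and VSG 5 was the lowest of the VSG libraries. In bulk tissue, fewer cells that carry class II and less class II RNA per cell cannot be told apart.

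H2-Eb1, the beta chain gene of I-E, was at 79.4, 64.3 and 97.4 CPM in sham and at 61.9, 30.6 and 42.6 CPM in VSG libraries. VSG 4 lay just under sham 2, so the groups were separate by a small margin. The log2 fold change was -0.84 (SE 0.273, 95% interval -1.49 to -0.19, adjusted p 0.0838 by edgeR). The adjusted p was 0.0230 with DESeq2, 0.0400 without VSG replicate 4 and 0.0422 without a low-count filter.

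H2-Aa, the alpha chain gene of I-A, was at 127, 91.9 and 143 CPM in sham and at 101, 44.5 and 74.2 CPM in VSG libraries. H2-Ab1, which encodes the beta chain of I-A, was at 75.3, 59.0 and 88.0 CPM in sham and at 60.5, 27.3 and 48.7 CPM in VSG libraries. In both genes VSG 4 lay above sham 2, and VSG 5 was the lowest by a wide margin. The log2 fold changes were -0.72 (SE 0.308, 95% interval -1.45 to 0.01) and -0.70 (SE 0.294, 95% interval -1.40 to -0.003), with adjusted p-values of 0.152 and 0.147 by edgeR. They were -0.49 and -0.46 when VSG replicate 5 was left out.

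Cd74 encodes the invariant chain, which fills the groove of new class II molecules and guides them to the endosome. It was at 237, 175 and 280 CPM in sham and at 222, 94.7 and 187 CPM in VSG libraries. Both VSG 4 and VSG 6 exceeded sham 2, so the groups overlapped. The log2 fold change was -0.46 (SE 0.328, 95% interval -1.24 to 0.32, adjusted p 0.355 by edgeR).

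Ciita, the gene of the class II transactivator, was the least abundant of the 10 per length. It was at 8.20, 4.80 and 9.80 CPM in sham and 7.60, 3.85 and 5.25 CPM in VSG libraries. H2-DMa and H2-DMb1 encode the chains of the molecule that exchanges peptides on class II. H2-DMa was at 8.16, 6.99 and 10.5 CPM in sham and at 8.78, 4.19 and 6.44 CPM in VSG libraries. H2-DMb1 was at 7.76, 6.72 and 10.7 CPM in sham and at 7.01, 4.15 and 7.54 CPM in VSG libraries. All of these 3 genes overlapped between groups. Their log2 fold changes were -0.45, -0.40 and -0.43, with adjusted p-values of 0.377, 0.360 and 0.311 by edgeR. The 95% interval of Ciita ran from -1.26 to 0.35, that of H2-DMa from -1.096 to 0.29 and that of H2-DMb1 from -1.09 to 0.23. In the order Cd74, Ciita, H2-DMa and H2-DMb1, the log2 fold changes were -0.20, -0.27, -0.19 and -0.23 when VSG replicate 5 was left out. They were -0.30, -0.23, -0.24 and -0.22 when sham replicate 3 was, and -0.71, -0.74, -0.69 and -0.52 when VSG replicate 4 was.

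Most other genes of the class II pathway had a positive log2 fold change, and few passed the test. Of 26 genes in the lists of other chains, transcription, processing and costimulation, 24 were tested, and their median log2 fold change was 0.31. It was negative in 6 of the 24, against 47.6% of all genes tested, and in 0 of the 3 tested other chains and 0 of the 5 tested costimulation genes. Of the 18 positive genes, 9 turned negative under at least 1 alternative, among them 2 of the 3 other chains and 4 of the 5 costimulation genes. Creb1, a factor that binds the X2 box and many other promoters, was the 1 gene that passed, with a log2 fold change of 0.48 (SE 0.0980, adjusted p 0.0269 by edgeR). The call did not hold with total counts as library sizes (0.171), nor when any single library except VSG replicate 5 was left out (up to 0.107). None of the others passed by edgeR, and over the 24 genes 6 had an unadjusted p under 0.05. Among all genes tested, 6.79% were called higher and 33.9% had an unadjusted p under 0.05. The VSG libraries all lay below sham in 2 of the 24 and above in 3, against 19.8% of all genes tested in each direction. DESeq2 called 2 of the 24 higher and 2 lower. The most abundant gene of each list did not pass. H2-DMb2, a second gene for the H2-DM beta chain, was at 0.543 ± 0.155 FPKM in sham and 0.601 ± 0.229 FPKM in VSG livers, and Nfyb, a Y box factor, at 4.95 ± 0.396 and 5.24 ± 0.597 FPKM. Ctsb, an endosomal protease, was at 151.5 ± 10.8 and 142.5 ± 28.65 FPKM. Cd274, a coinhibitory ligand, was at 3.22 ± 0.806 and 3.30 ± 1.29 FPKM. These 4 had adjusted p-values of 0.818, 0.651, 0.766 and 0.954.

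Per length, the order of the 10 genes was the same in both groups. In sham livers B2m led with 2369 ± 59.8 FPKM, followed by H2-K1 (346 ± 34.7), H2-D1 (204 ± 24.5), Cd74 (137 ± 31.5), H2-Eb1 (41.3 ± 8.52), H2-Aa (31.7 ± 6.89), H2-Ab1 (28.9 ± 5.65), H2-DMb1 (4.99 ± 1.22), H2-DMa (2.48 ± 0.516) and Ciita (0.797 ± 0.268). In VSG livers the corresponding levels began at 1553 ± 207 FPKM for B2m, 223 ± 16.02 for H2-K1 and 157 ± 15.4 for H2-D1 and ended at 0.584 ± 0.199 for Ciita. H2-Eb1, H2-Aa and H2-Ab1 overlapped among themselves in both groups, but not with Cd74 above or H2-DMb1 below them, and H2-DMb1 and H2-DMa did so in VSG livers. H2-Q10, at 338 ± 47.2 FPKM in sham, overlapped H2-K1 there, and in VSG livers, at 191 ± 10.4 FPKM, it lay below it without overlap.

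Ratios of FPKM within a library do not depend on how libraries are scaled. They were defined with the values known and are given as a description, with no test. The 2 classical heavy chains, H2-K1 over H2-D1, stood at 1.71 ± 0.236 in sham and 1.44 ± 0.233 in VSG livers and overlapped. B2m over the sum of both was 4.32 ± 0.271 in sham and 4.08 ± 0.506 in VSG livers and overlapped too. Of the FPKM of 15 heavy chain genes, H2-K1 took from 33.3% to 35.4% in sham and from 31.8% to 37.01% in VSG libraries, so the groups overlapped. H2-D1 took from 17.6% to 22.01% in sham and from 22.7% to 26.95% in VSG libraries, and H2-Q10 took from 31.6% to 37.5% in sham and from 28.3% to 30.5% in VSG libraries.

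Within class II, the balance of alpha and beta chains overlapped between groups. H2-Aa over H2-Ab1 was 1.096 ± 0.0422 in sham and 1.085 ± 0.0492 in VSG livers. Cd74 over the sum of H2-Aa, H2-Ab1 and H2-Eb1 was 1.36, 1.30 and 1.37 in sham and 1.61, 1.48 and 1.84 in VSG libraries, so every VSG library was above every sham library. The same held for Ciita over that sum, at 0.00767 ± 0.00121 in sham and 0.00982 ± 7.48e-04 in VSG livers.

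Of 8 Kupffer cell and macrophage markers 4 rose (Clec4f, Vsig4, Timd4 and Marco), with a summed level of all 8 from 345 to 730 CPM in sham and from 742 to 2165 CPM in VSG livers. The shares over all genes tested were 6.79% higher and 7.87% lower at an adjusted p under 0.05 by edgeR. Of 8 dendritic cell markers 1 fell (Siglech, log2 fold change -1.77, adjusted p 0.0397 by edgeR), and their sum ran from 26.5 to 43.8 CPM in sham and from 21.9 to 27.0 CPM in VSG livers. Itgax, the most abundant of them per length over all 6 libraries, averaged 16.6 ± 7.05 CPM in the sham and 5.88 ± 2.38 CPM in the VSG group. It did not pass (log2 fold change -1.50, adjusted p 0.0621 by edgeR). In VSG livers alone Clec9a was higher per length than Itgax (2.09 against 1.22 FPKM). The log2 fold change was positive for 3 of the 8, Flt3 (0.09), Xcr1 (0.33) and Clec9a (0.30), which did not pass. None of 6 tested B cell markers passed by edgeR, DESeq2 or limma-voom, and none had an unadjusted p under 0.05. Their log2 fold changes were positive in 6 of 6 (median 0.59), 1 of which turned negative under at least 1 alternative. Sums over all 7 listed B cell markers, tested or not, were 5.25 to 11.5 CPM in sham and 9.10 to 14.1 CPM in VSG livers. None of these markers was at 0 in a library. By DESeq2, 5 macrophage markers were higher and 2 dendritic cell markers lower. The call of Siglech held in 5 of 11 alternatives, and those of Clec4f, Vsig4, Timd4 and Marco in 8, 7, 9 and 9 of 12. The part of these cells in the class II levels was not tested.

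Further lists gave a background for both classes. Their counts stand beside 6.79% of all genes tested called higher and 7.87% called lower by edgeR, and 33.9% with an unadjusted p under 0.05. All 9 neutrophil markers rose by edgeR and DESeq2 (3 by limma-voom), with sums of 2.70 to 14.6 CPM in sham and 150 to 1838 CPM in VSG livers, and Mpo was at 0 counts in sham 2. Their calls held in 6 (Elane) to 11 (Prtn3) of 11 alternatives, or in 9 of 12 for S100a8 and S100a9. By edgeR, 1 of 4 monocyte markers rose (F13a1), where DESeq2 called 2. Of 4 bile duct markers 1 rose by edgeR (Sox9) and 0 by limma-voom, and the other 3 had negative log2 fold changes that did not pass (Krt19 -0.76, Krt7 -0.84 and Epcam -1.20). Of 4 stellate cell markers 2 fell by edgeR (Colec11 and Reln) and 4 by DESeq2. The calls of F13a1, Sox9, Colec11 and Reln held in 9, 7, 11 and 8 of 12 alternatives. By edgeR 0 of 8 T and NK cell markers, 0 of 4 sinusoidal endothelial markers and 0 of 5 hepatocyte markers passed, where 1, 0 and 1 had an unadjusted p under 0.05, and DESeq2 called 0, 0 and 1. The hepatocyte markers summed to between 58354 and 94373 CPM in sham and between 42337 and 67033 CPM in VSG libraries, with Alb the most abundant of them. The part of these cell types in the class I levels was not tested.

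Csf1r, the receptor that marks macrophages and monocytes, had the opposite order of groups to the class II chains. It was at 21.55, 12.1 and 18.6 FPKM in sham and at 49.7, 21.9 and 37.95 FPKM in VSG libraries (log2 fold change 1.07, adjusted p 0.0766 by edgeR). The summed FPKM of H2-Aa, H2-Ab1 and H2-Eb1 was 103, 80.2 and 122 in sham and 81.9, 38.1 and 60.4 in VSG libraries. Csf1r was chosen after its values were seen, and dividing by a gene with the opposite order of groups moves the groups apart by construction, so the ratio is a description only. It was 4.80, 6.61 and 6.56 in sham and 1.65, 1.74 and 1.59 in VSG libraries. Over each of the 8 macrophage markers in turn, the VSG libraries lay below the sham libraries in 8 of 8. All 8 markers had a positive log2 fold change, from 0.13 for Cd68, which turned negative under at least 1 alternative, to 4.96 for Marco. Dividing by them therefore also moves the groups apart by construction, and the count of 8 is a description only. For Cd5l, the most abundant per length, the ratio was 0.677, 1.22 and 1.11 in sham and 0.264, 0.327 and 0.326 in VSG libraries. The same sum over Itgax overlapped between groups, at 32.4 ± 10.6 in sham and 56.9 ± 33.2 in VSG livers. Itgax was itself lower on average after VSG (log2 fold change -1.50). No other dendritic cell marker was used as a divisor, so this ratio does not stand for dendritic cells as a whole.

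**Figure D4:**
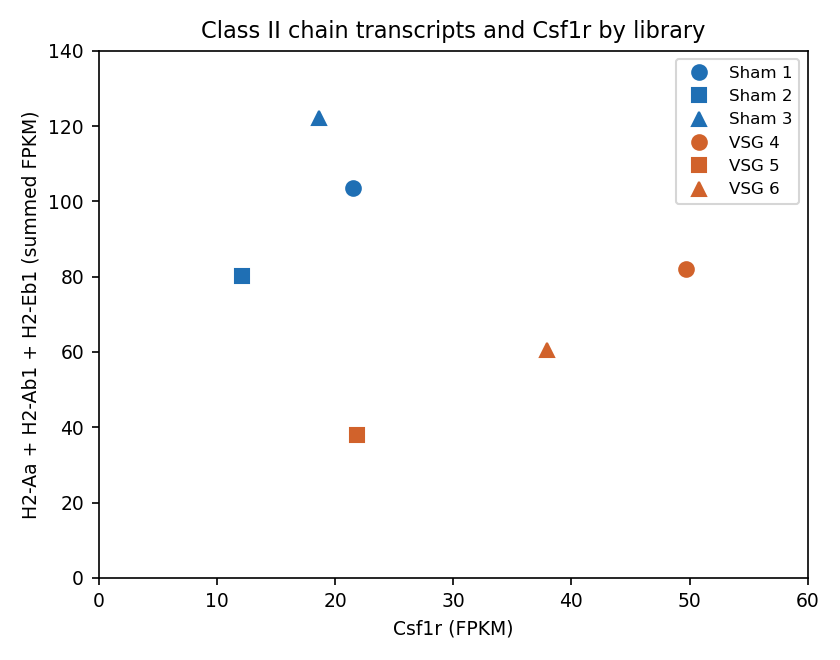
Summed FPKM of the class II chain genes H2-Aa, H2-Ab1 and H2-Eb1 (vertical axis) against the FPKM of Csf1r (horizontal axis), 1 point per library, sham in blue and VSG in orange. The VSG points lie to the right of the sham points, VSG 4 (81.9) level with sham 2 (80.2) in class II, at ratios of 1.59 to 1.74 against 4.80 to 6.61 in sham.

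The genes most like the MHC genes in pattern were searched over 12896 tested genes with a mean of at least 1 CPM. Likeness was Pearson's r over the 6 libraries with the mean centred log2 CPM of H2-Aa, H2-Ab1, H2-Eb1 and Cd74, or of H2-K1, H2-D1 and B2m. All 6 points share the group difference, so high values are common, and r is given as a description. The 5 highest for class II were Ttc39a (0.996), Ctps2 (0.993), Ispd (0.990), Arsb (0.986) and Ppip5k1 (0.984). Among the genes of the list itself, H2-DMa reached 0.972, H2-D1 0.929, H2-DMb1 0.926 and Ciita 0.913, and H2-K1 0.559. The 5 highest for class I were Lyplal1 (0.997), Vps29 (0.996), Agxt2 (0.996), Zfand2a (0.994) and Ntan1 (0.993).

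Sequence shared with other genes limits some of these values. Of all stretches of 50 bases in the GENCODE M21 transcripts of H2-K1, 9.63% also occurred in transcripts of another gene, and for H2-D1 it was 12.8%. The values were 19.0% for H2-Q10, 15.0% for H2-Q1, 32.0% for H2-Q6, 34.5% for H2-T22 and 22.7% for H2-DMb1 (all shared with H2-DMb2). They were 0.488% for H2-Aa and 0% for H2-Ab1, H2-Eb1, Cd74, Ciita, H2-DMa and B2m. How reads from shared stretches were counted is not stated, so levels of the class I heavy chains and H2-DMb1 are uncertain to that extent. Exons of H2-DMa share 360 bases with Brd2 on the opposite strand and those of Ciita 329 bases with Dexi, and the strand option of the counting is not stated either.

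All the genes but 3 lie in the MHC on chromosome 17 (GRCm38, GENCODE M21). H2-K1 spans 33996017 to 34000347 on the minus strand, H2-DMa 34119541 to 34139101 and H2-DMb1 34153072 to 34160230 on the plus strand, H2-Ab1 34257689 to 34269419 on the plus strand, H2-Aa 34282744 to 34287823 on the minus strand, H2-Eb1 34305867 to 34316674 on the plus strand and H2-D1 35262730 to 35267499 on the plus strand. B2m lies on chromosome 2 (122147686 to 122153083), Ciita on chromosome 16 (10480059 to 10528418) and Cd74 on chromosome 18 (60803848 to 60812652), all on the plus strand. All 10 are annotated as protein-coding, and counts were taken over exons.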

How the data were processed

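Per the labels and the methods, the authors made strand-specific poly(A) libraries, aligned the reads with STAR (2.6.0) to mm10 and deposited raw counts per gene from featureCounts (2.0.3 in the submitters' processing notes). The annotation, strand option and handling of multi-mapping reads are not given in the sources used here. The deposited exon length of each gene, in bases, entered only FPKM. Symbols came from GENCODE M21, to which 55144 of 55385 identifiers matched.

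After filterByExpr, with a minimum count of 10 and a minimum total of 15, 14454 genes remained and were fitted with edgeR 4.0.16 (R 4.3.3; TMM factors 0.897 to 1.15, glmQLFit, glmQLFTest, group as the only term). Adjusted p-values are Benjamini-Hochberg over all genes tested and come from edgeR unless another tool is named. SE is the log2 fold change divided by the square root of F, and the 95% interval uses the total degrees of freedom of the test. Values are mean ± SD over 3 libraries. A count of 3 (0.124 to 0.132 CPM) was the floor, for counting error only.

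Fits were repeated with limma-voom (limma 3.58.1), DESeq2 1.42.0, total counts or RLE size factors as library sizes, genes of 1 count or more, genes of 10 counts or more in each library, and each of the 6 libraries left out. The 10 genes and all gene lists were chosen with earlier results of these data known. Named genes are the 10, every listed gene past the test, the most abundant tested gene of each list per length, and the 5 genes most like each class. Any other gene was named after its values were seen. A gene of the other class I lists is not reported here and is in no count given for them. Promoter motifs were chosen after the promoters had been read.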

Additional observations from a re-analysis of the deposited data

How the results depend on the processing

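No paired analysis was possible because the sham and VSG libraries share no replicate numbers. The negative direction of all 10 genes held under all 12 alternatives, and in 109 of their 120 refits the side of the threshold held too. Most of these were refits of genes that passed in neither fit. The 1 call, that of H2-K1, held in 7 of 12 alternatives. With DESeq2, 3288 genes passed against 2118, 4 of the 10 MHC genes against 1, and 4 other class II genes against 1. Without a filter beyond 1 count, 2 of the 10 and 3 other class II genes passed, and with total counts as library sizes 2 of the 10 did. That last setting moved the median of all genes by -0.14 on the log2 scale, and 486 genes were then higher and 1512 lower against 981 and 1137. Leaving out 1 library gave from 159 to 2732 genes, from 0 to 1 of the 10, from 0 to 4 other class II genes and from 1 to 7 other class I genes. Of all genes, 159 passed when sham replicate 3 was left out and 2732 when VSG replicate 5 was. The count was 1214, 797, 1076 and 210 without sham replicates 1 and 2 and VSG replicates 4 and 6. The cause was not tested.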
